A study of Komagataella phaffii with 72 samples.

Results

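The gene described here is GQ67_00061, a nitrilase homolog of the methylotrophic yeast Komagataella phaffii that the study names NIT1, and it is 1 of the 5120 genes in the expression tables. It was taken by its identifier. The study lists it among 20 genes of the principal component that separated the strain GS115 in glycerol-grown strains without a transgene, which are other libraries, and the row was also chosen by its level in the present libraries, log2(TPM + 1) in GS115 against the other strains. Its level in each strain is therefore a description, given with no test.

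Nitrilases hydrolyze nitriles, organic compounds with a cyano group, to a carboxylic acid and ammonia. The name NIT1 comes from Saccharomyces cerevisiae, where it belongs to a gene of the nitrilase superfamily. What the K. phaffii protein acts on is known here only from that homology.

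The libraries were 3′ digital gene expression (3′ DGE) libraries, in which the 3′ end of each transcript is counted. There were 72, from clones of 4 strains, each clone made to express 1 of 2 human proteins. These were rhGH, a growth hormone, and rhG-CSF, the granulocyte-colony stimulating factor. Each of the 8 groups of strain and product held 3 clones, and each clone was grown in 3 cultures. Cultures were averaged by clone before anything else, so n is 3 clones for every group mean below.

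Y-11430 is the wild-type strain. GS115 is a histidine auxotroph made from Y-11430 by nitrosoguanidine mutagenesis, and Y-48124 and X-33 are both described as revertants of GS115. All clones in all groups carried their product gene behind the methanol-induced AOX1 promoter in an integrated pPICZ A vector, so no group was free of a transgene. All cultures were grown for 24 hr in 4% glycerol and then for 24 hr in 1.5% methanol before RNA was taken. By the sequencing in the study, Y-48124 and X-33 carry the same mutations as GS115 apart from the substitution in HIS4, a gene of histidine synthesis, where theirs is a different one, and they are slow growers without histidine rather than full prototrophs. The study also reports poor growth and negligible titers for the GS115 clones with a product gene. The part of growth in the differences between GS115 and the other strains was not tested. The clones of each strain were picked to span low to high copy number of the transgene. Copy number thus varies among the clones that serve as replicates, and its part in the spread between clones was not tested.

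Library totals ranged from 386665 to 33003281 counts. The rhGH transgene was at 9.51 or more on the log2(TPM + 1) scale in every library labelled rhGH and at 7.82 or less in the others, and the rhG-CSF transgene was at 8.50 or more against 7.98 or less, so the product labels held in all 72 libraries. TPM, transcripts per 1000000, is the authors' unit, and they added 1 before taking log2. The library labelled X-33 rhGH 12A went against its label in GQ67_03002, a gene chosen after its values were seen, with 62 counts or 41.7 per 1000000, where the other 8 X-33 rhGH libraries had at most 2 counts and the Y-11430 rhGH libraries 44.3 to 99.8 per 1000000. Its NIT1 level was 4.00, within the range of the strains other than GS115, and values without it are given where they touch a result.

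NIT1 was high in GS115 and low in the other 3 strains, whichever protein was made. In the 9 GS115 rhGH libraries it ranged from 9.17 to 10.12 with a median of 9.78 on the log2(TPM + 1) scale, from 1400 to 3714 counts. In the 9 GS115 rhG-CSF libraries it ranged from 8.28 to 10.67 with a median of 9.97, from 1965 to 14480 counts. These 18 libraries were the 18 highest of the 72.

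In Y-11430 the level ranged from 2.87 to 4.85 with a median of 3.58 in the rhGH libraries, and from 3.77 to 4.92 with a median of 4.25 in the rhG-CSF libraries. In Y-48124 it ranged from 3.56 to 4.62 with a median of 4.19 under rhGH, and from 4.05 to 5.42 with a median of 4.65 under rhG-CSF. In X-33 it ranged from 2.95 to 5.35 with a median of 4.00 under rhGH, and from 4.07 to 5.77 with a median of 4.46 under rhG-CSF. The ranges of these 6 groups of libraries overlapped one another, and none reached the GS115 range. The highest library outside GS115 was at 5.77 and the lowest GS115 library at 8.28, a gap of 2.50. In a bulk culture, fewer cells with the transcript and less transcript in each cell cannot be told apart.

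**Figure D1:**
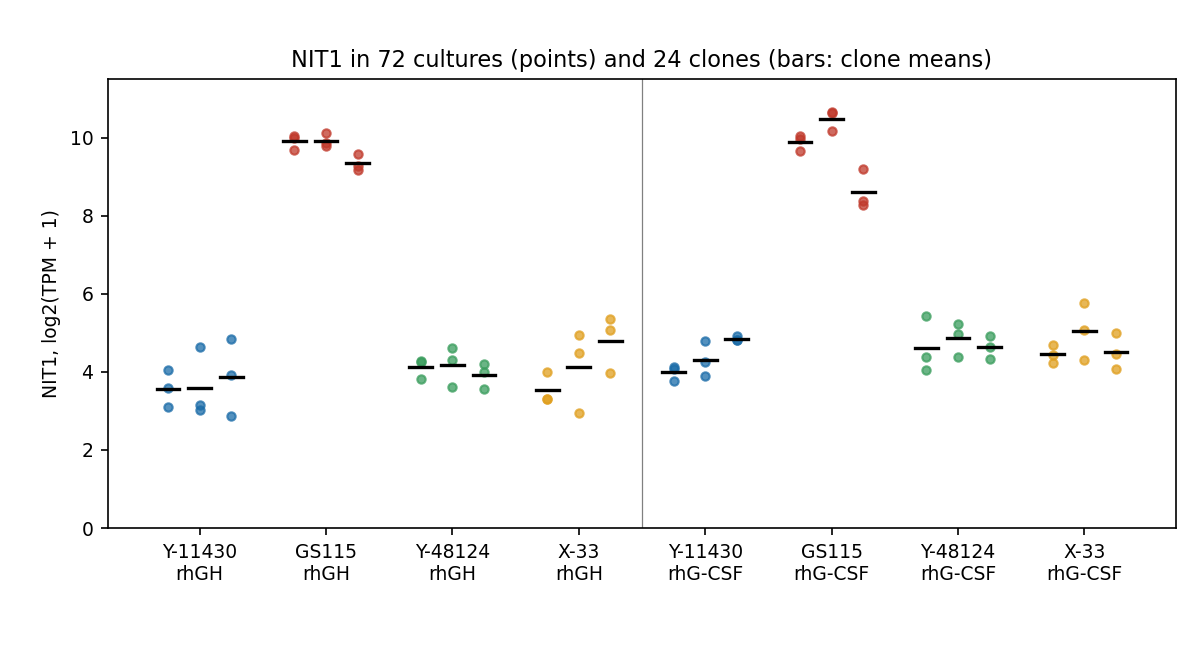
NIT1 level, log2(TPM + 1), in each of 72 cultures (points) and as the mean of each clone (black bars, 3 cultures each), by strain and product. All 18 GS115 cultures sit between 8.28 and 10.67, above the 54 others, which sit between 2.87 and 5.77.

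Averaged over clones, the order from high to low was as follows. GS115 rhGH was at 9.72 ± 0.33 (SD, n = 3 clones) and GS115 rhG-CSF at 9.67 ± 0.96. Y-48124 rhG-CSF was at 4.70 ± 0.13, X-33 rhG-CSF at 4.67 ± 0.33 and Y-11430 rhG-CSF at 4.39 ± 0.43. X-33 rhGH was at 4.16 ± 0.63, Y-48124 rhGH at 4.07 ± 0.14 and Y-11430 rhGH at 3.68 ± 0.17. Neighbors in that order had overlapping clone ranges at all but 2 steps. The exceptions were the step of 4.96 between the lower GS115 group and Y-48124 rhG-CSF, and the step of 0.39 between Y-48124 rhGH and Y-11430 rhGH. Without the library X-33 rhGH 12A, the difference of Y-48124 rhGH minus X-33 rhGH went from -0.08 to -0.0066.

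On the linear scale the mean of the GS115 clones was 865 ± 182 TPM under rhGH and 939 ± 524 TPM under rhG-CSF. The lowest group, Y-11430 rhGH, was at 13.5 ± 2.4 TPM, and the highest outside GS115, Y-48124 rhG-CSF, at 26.3 ± 2.3 TPM. By group mean of log2(TPM + 1), a scale that divides by transcript length although 3′ tags are counted once per transcript, NIT1 stood at place 238 of 5120 genes in GS115 rhGH and at place 3821 in Y-11430 rhGH. It was thus above 95.4% of genes in the first and above 25.4% in the second.

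The spread within GS115 lay mostly between clones. Under rhG-CSF the GS115 clones 12, 13 and 14 were at 9.89, 10.49 and 8.61, and the cultures of clone 14 ranged from 8.28 to 9.20. Clone 14 was thus the low one, with all of its cultures below every culture of the other clones. Under rhGH the clones 12, 13 and 14 were at 9.91, 9.92 and 9.34. Of the sum of squares over the 18 GS115 libraries, 86.0% lay between clones of a group, 13.8% between cultures of a clone and 0.216% between the products. Clone numbers name clones within a group and tie no clone of one product to a clone of the other.

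Outside GS115 the largest share of the sum of squares lay between cultures of the same clone. Of the sum of squares over those 54 libraries, 51.5% lay between cultures of a clone, 29.0% between groups and 19.5% between clones of a group. These shares are not scaled by the number of groups, clones and cultures. Cultures are the most numerous, so the shares do not rank the sources of spread. The counts there were small, from 5 to 89 a library. The SD between cultures, pooled over the clones of a group, ran from 0.29 to 0.82 over these 6 groups, and the median SD that counting alone gives ran from 0.22 to 0.34. The cultures are separate, so the former can hold more than counting error. The values were close in Y-11430 rhG-CSF (0.29 and 0.27) and in Y-48124 rhGH (0.39 and 0.34), where little beyond counting was seen. In the remaining groups the former was 0.51 or more and the latter 0.34 or less. A pooled SD and a median are unlike measures, so the excess is not sized here. Over all 72 libraries, 92.8% of the sum of squares lay between GS115 and the other strains.

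The comparison of GS115 with the other 3 strains asks how far the auxotroph stood from its parent and its revertants. Under rhGH, the GS115 clones (9.34 to 9.92) did not overlap the 9 others (3.54 to 4.80), and the difference of means was 5.75 on the log2(TPM + 1) scale, or 54.0-fold, with a pooled clone SD of 0.37. A lack of overlap with GS115 higher was found for 41.8% of all genes in this contrast. Since the row was put forward with this contrast known, nothing is read from that share. The difference was 6.04 from Y-11430, 5.65 from Y-48124 and 5.57 from X-33. The revertants and the wild type were therefore at similar distances below GS115, and without the library X-33 rhGH 12A the difference from the 3 strains was 5.78.

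Under rhG-CSF, the GS115 clones (8.61 to 10.49) again lay above all 9 others (4.00 to 5.05), with 20.4% of all genes not overlapping in that direction. The difference of means was 5.08, or 33.8-fold, with a pooled clone SD of 0.56. It was 5.28 from Y-11430, 4.96 from Y-48124 and 4.997 from X-33. The size depended on GS115 clone 14, the low one: leaving out 1 clone at a time moved the difference between 4.67 and 5.60, where 5.60 is the value without clone 14. Whether the rhGH and rhG-CSF differences themselves differ was not tested. With the products joined, 6 GS115 clones against 18 others, 16% of all genes lay higher in GS115 without overlap.

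All genes together also shifted between strains on the deposited scale, so these differences have to be read against that shift. The median difference of all genes between GS115 and the other strains was 0.50 under rhGH and 0.24 under rhG-CSF on the log2(TPM + 1) scale, and 0.05 and 0.06 in the edgeR fit, which rescales the libraries. In that fit the log2 fold change of NIT1 was 5.39 with a standard error of 0.26 under rhGH, and 4.94 with a standard error of 0.25 under rhG-CSF, or 41.9-fold and 30.6-fold. By the difference of log2(TPM + 1), NIT1 stood at place 1 of 5120 genes in both products, and the next gene was at 5.04 under rhGH and 4.90 under rhG-CSF. By the edgeR log2 fold change it stood at place 4 of 5043 in both, so its place at the top depended on the scale.

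**Figure D2:**
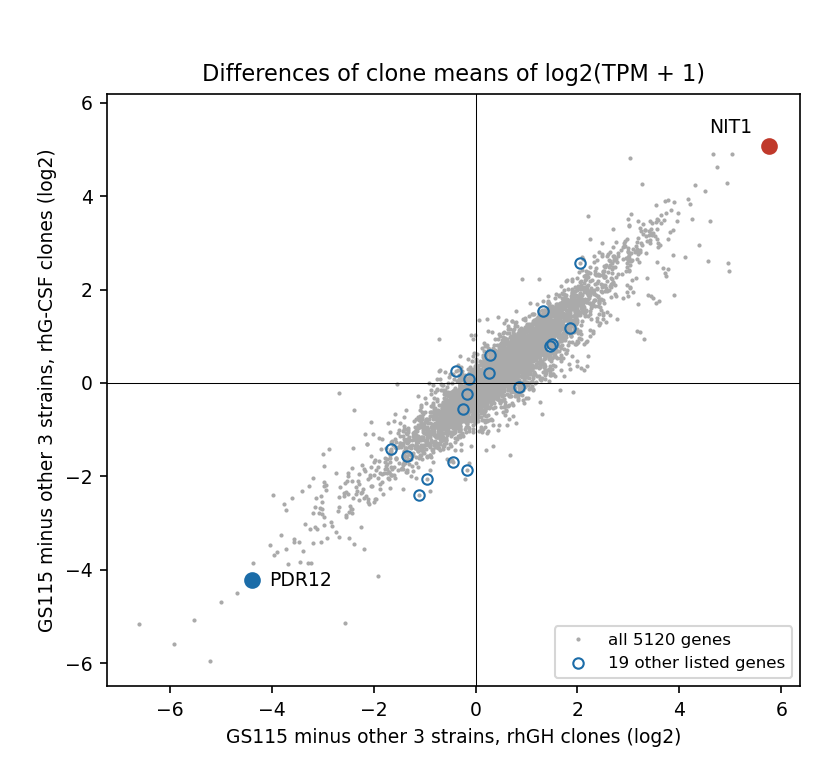
Difference of clone means of log2(TPM + 1), GS115 minus the other 3 strains, under rhGH (x axis) and under rhG-CSF (y axis), for all 5120 genes (gray dots), with NIT1, PDR12 and the other genes of the study's list (rings) marked. NIT1 sits at 5.75 and 5.08, at the upper right end, and PDR12 at -4.39 and -4.21, toward the lower left.

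The low level outside GS115 rests on few molecules. The 54 libraries held 1615 NIT1 counts in all, against 62838 in the 18 GS115 libraries. As CPM, the count divided by the library total and scaled to 1000000, NIT1 ranged from 7.17 to 63.0 outside GS115 and from 439 to 1754 in GS115. Every library outside GS115 was above the limit of 3 counts that a count of 0 allows, the lowest being X-33 rhGH 13A with 5 counts, or 7.92 CPM. The exact 95% Poisson interval of that value, which covers counting error only, ran from 2.57 to 18.5 CPM.

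Reads counted for genes that a library should not hold were also present at low level. The study lists the same forward primer for the reading frames of both transgenes, so these share their start. Whether reads of either transgene were assigned to the other was not tested. Among the 27 rhGH libraries outside GS115, the transgene of rhG-CSF, which those clones do not carry by their labels, had 20 to 218 counts with a median of 61, and that median is 0.00832% of the 732835 counts it had in the rhG-CSF libraries. NIT1 had a median of 18 counts in the same 27 libraries, 0.0286% of its 62838 counts in GS115. Among the 27 rhG-CSF libraries outside GS115, the rhGH transgene had 20 to 239 counts with a median of 66, 0.0206% of its 321042 counts in the rhGH libraries, and NIT1 a median of 34 counts, 0.0541% of its counts in GS115. By median the NIT1 share was the larger of each pair, but the ranges overlapped. In the rhGH libraries they were 0.00796% to 0.0589% for NIT1 and 0.00273% to 0.0297% for the transgene. In the rhG-CSF libraries they were 0.0271% to 0.142% for NIT1 and 0.00623% to 0.0744% for the transgene. The source counts came from 18 libraries for NIT1 and from 36 for each transgene. The part of such reads in the NIT1 level outside GS115 was not tested, and it bears on all folds above and on every comparison among the low groups.

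**Figure D3:**
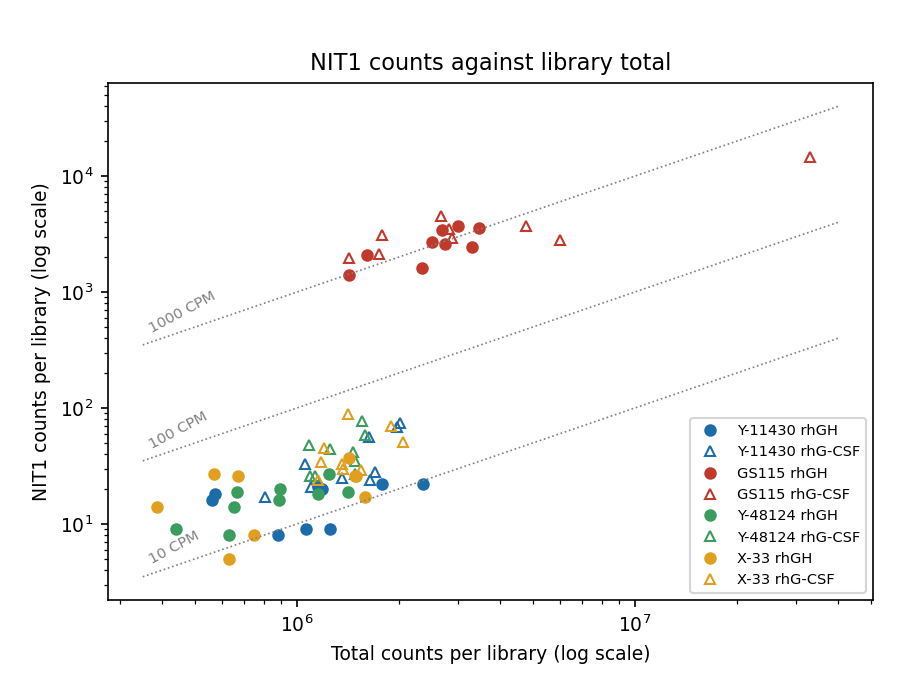
NIT1 counts per library against the library's total counts, both on log scales, by strain (color) and product (filled for rhGH, open for rhG-CSF); dotted lines mark fixed CPM values. The GS115 libraries lie between 439 and 1754 CPM and all others between 7.17 and 63.0 CPM.

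Depth moved with the level outside GS115. Among the rhGH libraries there, the 14 with under 1000000 counts had a median NIT1 of 21.9 CPM and 4.28 on the log2(TPM + 1) scale, and the 13 with more had 15.5 CPM and 3.82. The shallower libraries were higher by 0.46, a value above that of 96.5% of genes, and the median over all genes was -0.015. Pooling mixes strains in unequal shares, with 3 of the 14 shallower and 6 of the 13 deeper libraries from Y-11430. Within strains the medians of the shallower and deeper libraries were 4.63 and 3.36 in Y-11430, 4.95 and 3.99 in X-33, and 4.23 and 3.82 in Y-48124, so the shallower libraries were higher in each. Among the rhG-CSF libraries outside GS115, 1 had under 1000000 counts, so no such split could be made there. Libraries of at least 1000000 counts were also taken alone, a choice made after the data were seen. Among them the NIT1 mean under rhG-CSF exceeded that under rhGH by 0.97 in Y-11430, 0.88 in Y-48124 and 0.63 in X-33. That limit dropped 14 rhGH libraries and 1 rhG-CSF library, and the shallower rhGH libraries had the higher median within every strain. Larger product differences than those given below thus largely follow from the limit itself. They are no separate check on depth, whose part in the product differences was not tested.

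Among the strains outside GS115, NIT1 differed by little. Y-11430 was below Y-48124 and X-33 by 0.43 under rhGH (3.68 against 4.11) and by 0.30 under rhG-CSF (4.39 against 4.69), and the clone ranges overlapped in both. In these contrasts 18.3% and 3.96% of all genes did not overlap in either direction. The edgeR log2 fold changes were -0.68 with a standard error of 0.33 and -0.35 with a standard error of 0.30. The differences were of the size of the pooled clone SDs, 0.39 and 0.32, and the first was -0.39 without the library X-33 rhGH 12A.

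Between the revertants the difference was smaller still. Y-48124 minus X-33 was -0.08 under rhGH and 0.04 under rhG-CSF, with overlapping clones in both and pooled clone SDs of 0.46 and 0.25. Of all genes, 10.2% and 14.1% did not overlap in these contrasts. The sign of either difference changed when single clones were left out.

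The clones that made rhG-CSF had the higher NIT1 mean in all 3 strains outside GS115. In Y-11430 the difference was 0.71, and the rhG-CSF clones (4.00 to 4.85) lay just above the rhGH clones (3.57 to 3.88), by 0.11. In Y-48124 it was 0.63, with clones at 4.62 to 4.86 against 3.92 to 4.18. Of all genes, 10.9% in Y-11430 and 21.2% in Y-48124 lay higher under rhG-CSF without overlap, so NIT1 shared that pattern with many genes.

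In X-33 the product difference was 0.51, with overlapping clones (4.45 to 5.05 against 3.54 to 4.80) where 22.1% of genes did not overlap in either direction, and it was 0.59 without the library X-33 rhGH 12A. The edgeR log2 fold changes were 0.88 with a standard error of 0.36 in Y-11430, 0.64 with 0.36 in Y-48124 and 0.44 with 0.35 in X-33. In GS115 the difference was -0.06 against a pooled clone SD of 0.72, the clones overlapped, and 9.41% of genes did not. The edgeR value in GS115 had the other sign, 0.20 with a standard error of 0.32, so no direction can be given there. Whether the product difference in the low strains differs from that in GS115 was not tested.

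The other genes of the study's list were then read in the same contrast, with the edgeR quasi-likelihood test and Benjamini-Hochberg adjustment over all 5043 genes tested, called at an adjusted p under 0.05. All 19 were tested. Under rhGH 4 were higher in GS115, 8 were lower and 7 were not called, where 32.9% of all genes were higher and 28.9% lower. Without the library X-33 rhGH 12A, 13 of the 19 were called in place of 12. Under rhG-CSF 4 were higher, 9 lower and 6 not called, where 32.9% of all genes were higher and 27.3% lower. The same 4 genes were higher in both products, 8 were lower in both, and 0 were called in opposite directions. The share of all genes called alike in both is not given here. Across all genes the GS115 differences under rhGH and rhG-CSF had a Pearson r of 0.94, so like directions are not particular to the list. The products share no libraries, but the strains are the same.

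The list has 2 sides, set by the sign with which a gene entered the component. Of the 9 genes on the side of NIT1, 4 were higher in GS115 and 2 were lower in each product. Of the 10 on the other side, 0 were higher, and 6 under rhGH and 7 under rhG-CSF were lower. The median difference over the 19 genes was -0.16 under rhGH and -0.09 under rhG-CSF on the log2(TPM + 1) scale, beside 0.50 and 0.24 for all genes. NIT1, a row chosen by its level in GS115 against the other strains, lay above the rest of its list. The next highest differences there were 2.04 and 2.57, and on the lower side PDR12 was at -4.39 and -4.21.

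**Figure D4:**
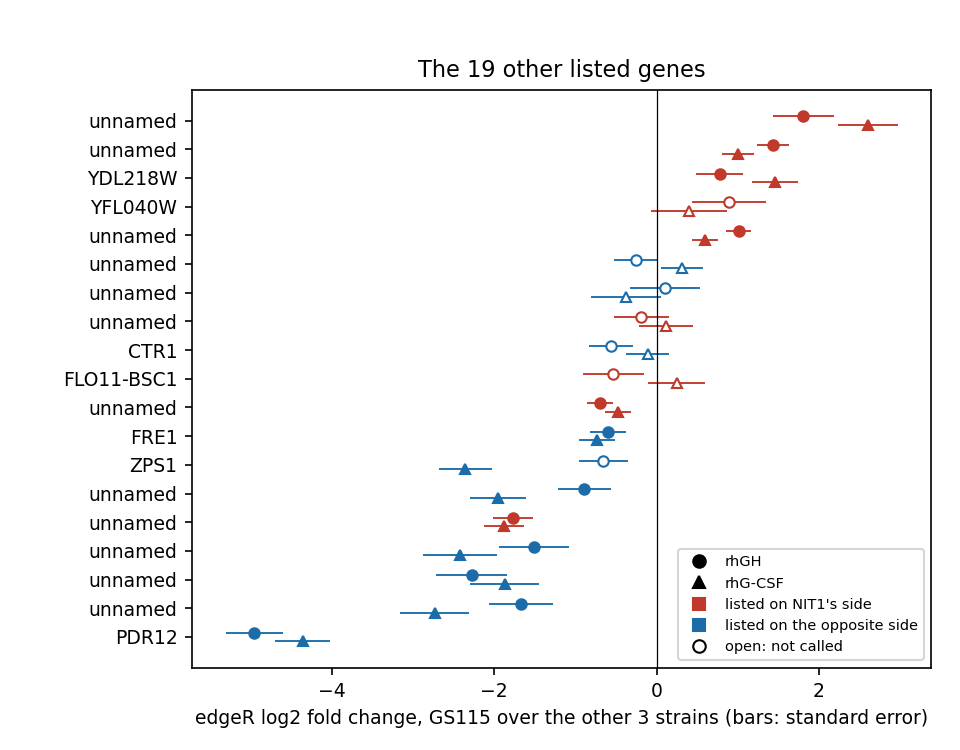
edgeR log2 fold change, GS115 over the other 3 strains, for the 19 other genes of the study's list (circles rhGH, triangles rhG-CSF; bars are standard errors; red marks the side of NIT1, blue the opposite side; open symbols were not called). PDR12 lies lowest at -4.96 and -4.36, and all genes on the opposite side that were called lie below 0.

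PDR12 (GQ67_05224), which in S. cerevisiae is the plasma membrane ABC transporter that exports weak organic acid anions, was the listed gene with the largest fall. In the GS115 libraries its level ranged from 3.75 to 5.11 and in all others it was 7.18 or more, so the groups did not overlap. Under rhGH it was at 4.44 ± 0.40 (SD) in GS115 and 8.83 in the other strains, an edgeR log2 fold change of -4.96 with a standard error of 0.35 and an adjusted p of 3.3e-10. Under rhG-CSF it was at 4.36 ± 0.37 against 8.57, a change of -4.36 with a standard error of 0.34 and an adjusted p of 9.97e-10. A lack of overlap between the 6 GS115 clones and the 18 others with GS115 lower was found for 2.93% of all genes.

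**Figure D5:**
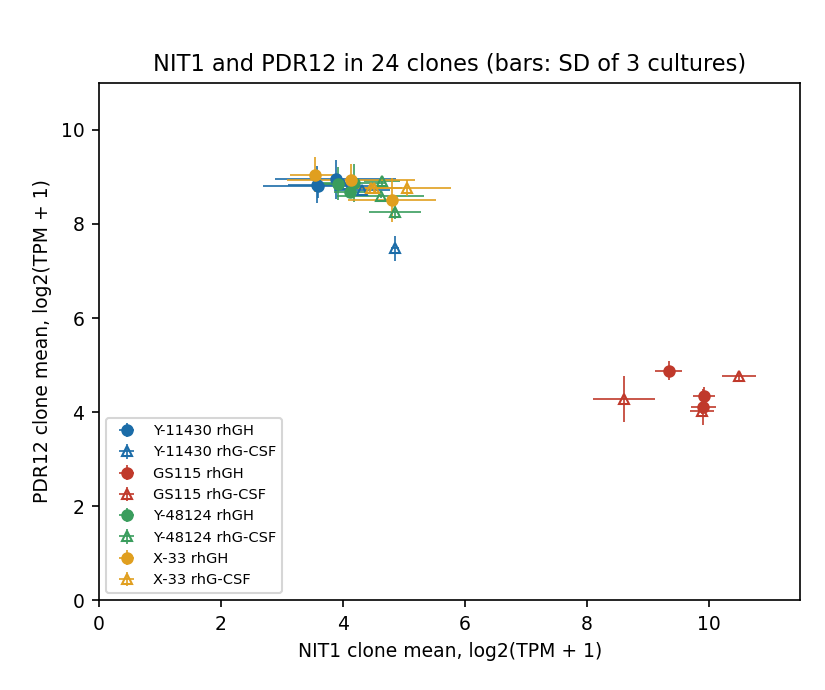
PDR12 against NIT1, both as clone means of log2(TPM + 1), in 24 clones; bars are the SD of 3 cultures. The 6 GS115 clones sit at the lower right, with PDR12 from 4.03 to 4.88, and the 18 other clones at the upper left, with PDR12 from 7.48 to 9.05.

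Of the other named genes on the list, YDL218W was the one on the side of NIT1 that was called. It was at 10.49 in GS115 and 9.15 in the other strains under rhGH, with an edgeR log2 fold change of 0.78 and an adjusted p of 0.0263, and the call was lost without GS115 clone 12 (adjusted p = 0.152) or clone 13 (adjusted p = 0.0967). Under rhG-CSF it rose by 1.46 with an edgeR adjusted p of 1.77e-04. YFL040W, a putative transporter in S. cerevisiae, was not called, at 0.90 under rhGH (edgeR adjusted p = 0.0942) and 0.40 under rhG-CSF (edgeR adjusted p = 0.479). Under rhGH it was called with limma (adjusted p = 0.0161), without the library X-33 rhGH 12A (edgeR adjusted p = 0.0091) and without the X-33 clone 12 of which that library is a culture (edgeR adjusted p = 0.0172). FLO11-BSC1, named for cell surface flocculin genes, was not called in either product, at -0.53 and 0.25.

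The genes of metal uptake on the other side moved less than PDR12. CTR1, the high-affinity copper transporter in S. cerevisiae, was not called, at -0.56 under rhGH (edgeR adjusted p = 0.0805) and -0.11 under rhG-CSF (edgeR adjusted p = 0.742). Under rhGH it was called with DESeq2 (adjusted p = 0.0289) and without X-33 clone 14 (edgeR adjusted p = 0.0186). FRE1, the ferric and cupric reductase, fell by 0.60 under rhGH (edgeR adjusted p = 0.0226) and by 0.73 under rhG-CSF (edgeR adjusted p = 0.00744). The FRE1 call was lost without GS115 clone 12 or 13 under rhGH (edgeR adjusted p = 0.083 and 0.106), with limma under rhGH (adjusted p = 0.292) and without GS115 clone 14 under rhG-CSF (edgeR adjusted p = 0.063). ZPS1, a zinc-regulated gene in S. cerevisiae, was not called under rhGH, at -0.66 (edgeR adjusted p = 0.0622), and fell by 2.35 under rhG-CSF (edgeR adjusted p = 3.4e-06). Under rhGH it was called with DESeq2 (adjusted p = 0.0344), with DESeq2's size factors in edgeR (adjusted p = 0.046) and without Y-11430 clone 22 (edgeR adjusted p = 0.048).

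Likeness to NIT1 was measured as the Pearson correlation over the 24 clone means, among 4818 genes with a mean log2(TPM + 1) of at least 2. The clones share strains and products, and with NIT1 split between GS115 and the rest, any gene that separates GS115 gives a high value: 161 genes had r above 0.95 and 49 had r below -0.9. These values are descriptions.

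The gene most like NIT1 was GQ67_03641, with r of 0.992. It was at 8.44 to 9.67 in GS115 clones and at 5.78 to 6.54 in the others, and r was 0.989 within the 6 GS115 clones and 0.668 within the 18 others. Next was GQ67_00744 with r of 0.989, at 7.19 to 8.69 in GS115 clones and at 4.49 to 5.53 in the others, and with r of 0.993 within GS115 and 0.650 outside it. Both genes thus followed NIT1 among the GS115 clones, with the lowest value in rhG-CSF clone 14, as well as between strains. They were picked by r over clones that include these 6, so a high r within GS115 is partly what picked them.

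The gene most opposite to NIT1 by this measure was PDR12, with r of -0.977. By Spearman's rho, which ranks the clones, other genes came first at both ends. Within GS115 its r was 0.09, so the opposition did not extend to those clones, and outside GS115 it was -0.57. Next was GQ67_00077 with r of -0.963, at 3.90 to 4.77 in GS115 clones and at 6.75 to 8.67 in the others.

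Of the 9 genes with identifiers within 5 of the number of NIT1, none came near its difference: the difference between GS115 and the other strains ran from -1.24 to 0.78. Of these, 1 gene, GQ67_00060, lay higher in GS115 without overlap of the 6 and 18 clones, 1, GQ67_00059, lay lower, and 7 overlapped, beside 16% of all genes higher and 2.93% lower without overlap. With so few genes nothing particular to the neighbors can be read from these counts. Identifier order is not taken here as position on a chromosome.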

How the data were processed

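RNA of 72 K. phaffii cultures was measured by 3′ DGE. Per the labels and the study's methods, the authors quantified reads with Salmon 0.9.1 against 1 transcript per gene with an extended 3′ end plus the transgenes. The processing notes also name bedtools 2.26.0. Handling of molecular identifiers is not given in the sources used here. The deposited files hold whole-number counts per gene and log2(TPM + 1) values made by the authors with a pseudocount of 1. All columns were mapped by name (WT was read as Y-11430, the wild type, and rG-CSF in the labels as rhG-CSF). No coordinates or sequences were used.

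The clone was the replicate. Clones of a strain differed in transgene copy number by the choice of the study. The labels do not say whether these clones came from separate transformations. The p-values therefore judge a group difference against the spread between these clones only, estimated in a fit across genes. NIT1 levels are means of 3 cultures per clone, then mean and SD of 3 clones. Counts summed by clone were fitted with edgeR 4.0.16 (quasi-likelihood, TMM, filterByExpr, 8 group means, R 4.3.3), with p-values adjusted by Benjamini-Hochberg over the 5043 genes kept. The script was tested on simulated data. Python 3.11.15, pandas 2.3.3 and NumPy 2.4.6 served for the rest. The gene and the lists were chosen with earlier results of these data known. Genes named are NIT1, the named genes of the study's list, and the 2 most like and 2 most opposite to NIT1 by Pearson's r; the identifier neighbors named fell outside that rule and were chosen after their values were seen. Alternatives were log2(CPM + 1), other pseudocounts, DESeq2 1.42.0, limma 3.58.1, DESeq2 size factors, no filter, cultures as samples, a replicate block, and leaving out single libraries or clones.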

Additional observations from a re-analysis of the deposited data

Results flagged for a closer look

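A library far from the other 8 of its group was looked for in 24 sets (NIT1 on 2 scales and library totals, each in 8 groups), where chance flags about 1 set in 20, or about 1.2 sets. There were 2 such libraries. X-33 rhG-CSF 13C had NIT1 at 62.96 CPM, from 89 counts, and the other 8 libraries of that group were between 18.7 and 37.5 CPM. It remained below the lowest GS115 library, at 439 CPM. GS115 rhG-CSF 14A had a total of 33003281 counts, and the other 8 totals of that group were between 1423848 and 5996828. Its NIT1 level of 8.28 was the lowest of the GS115 libraries, and culture B of the same clone, with a total of 5996828 counts, was at 8.37.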

How the results depend on the processing

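The difference of NIT1 between GS115 and the other strains kept its sign and was 4.67 or more under every alternative run. Under rhGH it moved by more than the pooled clone SD of 0.37 with edgeR on DESeq2's size factors (5.34) and with cultures as samples and the culture letter as replicate block (5.37), against 5.75. Culture letters share only a letter: deviations of same-letter cultures had a median correlation of 0.0026 and those of different letters -0.0019, and the block left the listed genes called at 15 under rhGH and 13 under rhG-CSF, as with cultures as samples and no block. Limited to libraries of at least 1000000 counts, a choice made after seeing the data, the product difference in Y-48124 was 0.88 against 0.63, from fewer libraries. Without single clones, the GS115 difference ran from 5.65 to 5.94 under rhGH and from 4.67 to 5.60 under rhG-CSF. Y-11430 minus the revertants ran from -0.59 to -0.27 and from -0.53 to -0.10, and Y-48124 minus X-33 from -0.39 to 0.24 and from -0.07 to 0.23. The product difference ran from -0.47 to 0.47 in GS115, 0.20 to 0.84 in X-33, 0.47 to 0.90 in Y-11430 and 0.56 to 0.69 in Y-48124. Listed genes called ran from 9 to 13 (12 with all clones) under rhGH and from 11 to 13 (13) under rhG-CSF, and all genes called from 2729 to 3088 and from 2726 to 3322. Under rhG-CSF, FLO11-BSC1 and CTR1, neither called, changed sign: without single clones FLO11-BSC1 ran from -0.26 to 0.62 and CTR1 from -0.23 to 0.086, both turning without GS115 clone 14, and CTR1 was at 0.082 with limma. With cultures as samples, with or without the block, YFL040W, CTR1 and ZPS1 were also called under rhGH. By Spearman's rho the most like (GQ67_04267, 0.936) and the most opposite (GQ67_03364, -0.932) were other genes. Low counts outside GS115 limit every difference among those groups; the causes of these shifts were not tested.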
